A study of Sus scrofa with 13 samples.

Results

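The creatine kinase and adenylate energy buffer was followed through 6 genes in pig loin muscle: CKM, CKMT2, CKB, AK1, AMPD1 and SLC6A8. The genes were chosen by symbol, and each matched 1 of the 25322 Ensembl genes counted in both count tables. RNA from longissimus lumborum, the main muscle of the loin, was sequenced in 13 female pigs aged 6 months. Each breed was split by the weight of the dissected loin, so the 4 groups were Hampshire with high loin weight (n = 3), Hampshire with low loin weight (n = 3), Pietrain with high loin weight (n = 4) and Pietrain with low loin weight (n = 3). The study's own table of muscle weights lists fewer pigs for Pietrain with high loin weight than the sample labels do, and every labelled pig was used here. No group received a treatment, and all samples went into RNAlater at slaughter before the same library kit and single-end sequencing. The pigs of each group were picked by the study from the extremes of a larger population and were unrelated animals, and each library came from 1 pig.

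Creatine kinase moves a phosphate group between creatine phosphate and ADP, and so refills ATP within moments of a contraction. Muscle fibres hold a cytosolic enzyme near the myofibrils and a mitochondrial enzyme that charges creatine with phosphate made by respiration. When ADP still builds up, adenylate kinase makes ATP and AMP from a pair of ADP molecules, and AMP deaminase removes the AMP as IMP, which keeps that reaction going. Creatine itself is made mostly outside muscle and enters the fibre through a transporter in the cell membrane.

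The libraries held between 11312755 and 20134612 counted reads. The 5 matched genes of a list of 8 skeletal muscle markers included CKM itself. These 5 summed to between 75063 and 222331 CPM (counts per 1000000 counted reads) across the 13 pigs, and none of them was at 0. All CPM values here use library sizes scaled by TMM, a normalization that keeps a few very abundant genes from moving the rest, over the 13 pigs. The 6 energy buffer genes took 3.90% to 5.62% of the counted reads in the Hampshire high group and 2.55% to 3.09% in the Hampshire low group. In Pietrain they took 2.19% to 2.96% with high and 1.94% to 2.26% with low loin weight. Most of these reads belonged to CKM in every pig. Levels are compared between pigs and not between genes, since the tables give no exon lengths. Because whole muscle was sequenced, fewer cells of a type and less RNA per cell cannot be told apart. The count tables were deposited separately by breed, so breed cannot be told apart from any step that differed between the 2 tables.

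**Figure D1:**
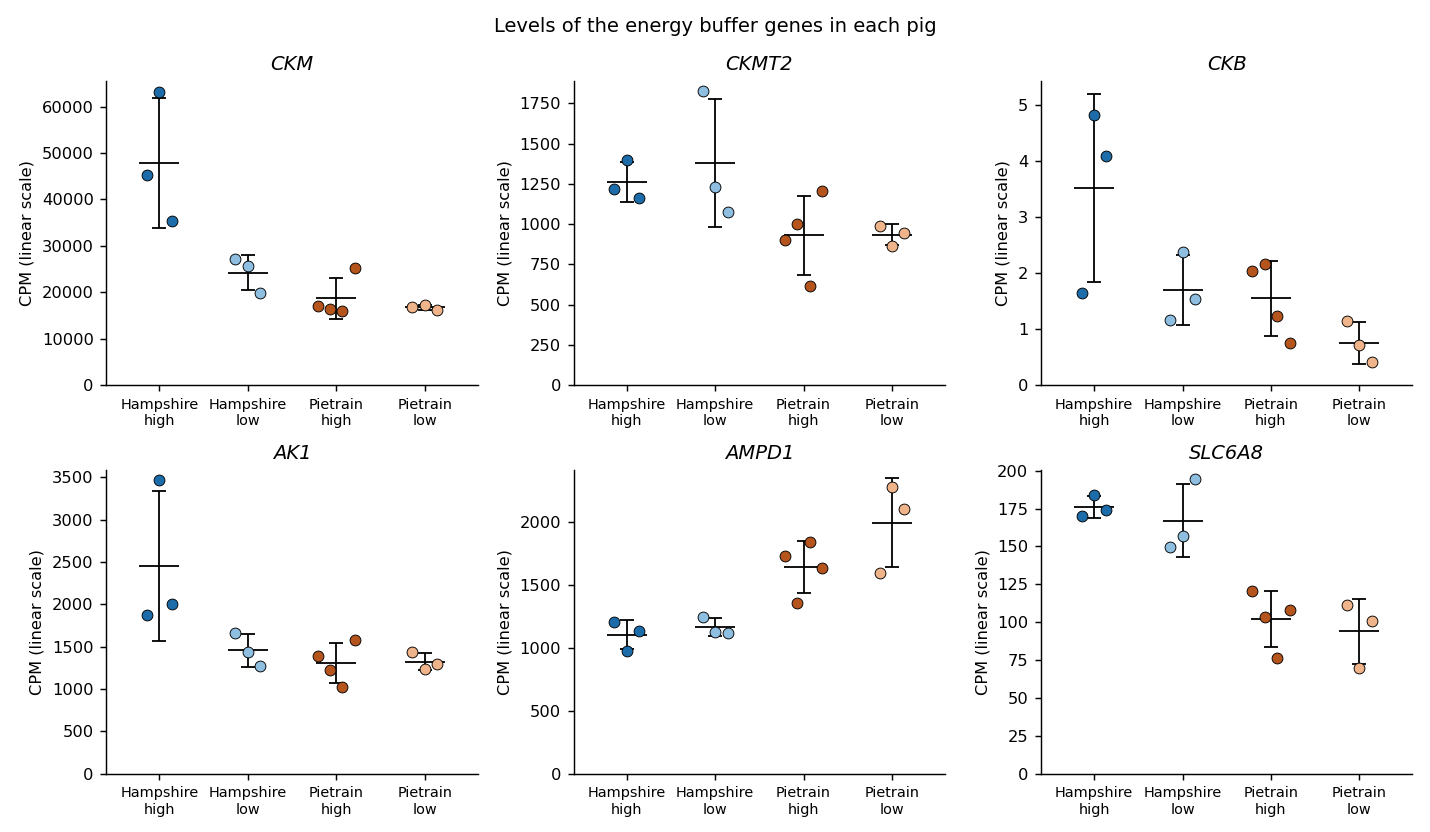
CPM on a linear scale for the 6 energy buffer genes, with 1 point per pig and a black line and bar for the group mean ± SD (n = 3, 3, 4 and 3 pigs from left to right). The 3 CKM points of Hampshire pigs with high loin weight, from 35299.5 to 63081 CPM, lie above all other pigs, and the 6 AMPD1 points of Hampshire lie below all 7 of Pietrain. Within a loin weight group the breeds did not overlap for 42.8% (low) and 48.7% (high) of all genes.

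CKM (ENSSSCG00000025268) encodes the cytosolic creatine kinase of muscle. The deposited annotation of the Sscrofa10.2 assembly puts it on the unplaced scaffold GL896419.1, from base 12573 to 20830. In the Hampshire high group it was counted at 45234, 63081 and 35299.5 CPM. The Hampshire pigs with low loin weight had 27080.4, 25567 and 19876 CPM. The groups did not overlap, and the means were 47871 ± 14077 (SD, n = 3) and 24174 ± 3799 (SD, n = 3) CPM.

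In Pietrain, the pigs with high loin weight had 17093, 16482, 15946 and 25248 CPM of CKM and those with low loin weight had 16866, 17164 and 16233 CPM. The groups overlapped, with 3 pigs of the high group at or below the level of the low group and pig 7 above it. The means were 18692 ± 4396 (SD, n = 4) and 16754 ± 476 (SD, n = 3) CPM. The order of the group means was therefore Hampshire high, Hampshire low, Pietrain high and Pietrain low. Hampshire high did not overlap with Hampshire low, while both Hampshire low and Pietrain low overlapped with Pietrain high. CKM alone made up 3.46% to 5.13% of all counted reads in Hampshire pigs with high loin weight, against 1.54% to 1.82% in Pietrain pigs with low loin weight.

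Each breed was tested on its own for high against low loin weight with edgeR's quasi-likelihood test. Calls needed an adjusted p (Benjamini-Hochberg) under 0.05 together with a fold change of at least 1.2. In Hampshire, 26.6% of the 12228 genes tested were called in either direction, 12% higher and 14.6% lower. Higher genes thus made up 45.1% of the calls, or 28.8% when libraries were scaled by total counted reads alone. CKM was the 1 of 6 energy buffer genes called. It was 1.97-fold higher with high loin weight, with a log2 fold change of 0.98 ± 0.28 (SE) and an edgeR adjusted p of 0.0325. CKM and AK1 were the 2 of 6 genes whose groups did not overlap, as was the case for 45.9% of all genes tested, so both shares are near those of genes at large. The median log2 fold change of the 6 genes was 0.41, beside 0.029 for all genes.

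The call for CKM was lost without any 1 of 5 of the 6 pigs. Leaving out a pig gave log2 fold changes of 0.70 to 1.15, and the edgeR adjusted p passed 0.05 without pig 1, 2 or 3 of the low group (0.0534, 0.0786 and 0.132) and without pig 8 or 9 of the high group (0.0525 and 0.0655). With the trend of counts along gene length removed in each pig, the value was 0.75 with an adjusted p of 0.0708. Slow fibre markers differed in Hampshire too: 5 of the 6 tested were called higher in the Hampshire high group, and the median over the 6 was 1.90 (log2). The summed level of these markers was 12886 to 20076 CPM in that group and 5515 to 8823 CPM in the low group. In Pietrain 0 of the 6 were called, with sums of 2146 to 13654 CPM in the high and 2943 to 10529 CPM in the low group. Of 5 fast fibre markers in Hampshire, 1 was called and it was lower. The log2 fold change lay above 0 for 3 of the 5, with a median of 0.46. Their summed levels were 83577 to 87622 CPM in the high and 82762 to 128996 CPM in the low group. Of 5 skeletal muscle markers, CKM among them, 2 were called higher and 1 lower, with a median of 0.69. Their sums were 152977 to 222331 CPM in the high and 121828 to 184915 CPM in the low group. Markers of other cells moved too, with 3 of 5 fibroblast, 3 of 5 smooth muscle, 2 of 4 macrophage and 1 of 4 endothelial markers called higher. Of 3 adipocyte markers 1 was called higher and 1 lower, of 9 markers of mitochondrial content 2 were called higher, and 0 of 2 nerve and 0 of 2 erythroid markers were called. The part of fibre type and of other cells in the CKM result was not tested.

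CKMT2 (ENSSSCG00000014128; chromosome 2, 91754200 to 91770538) encodes the mitochondrial creatine kinase of striated muscle. Its levels in Hampshire were 1218, 1399 and 1164 CPM with high and 1828, 1232 and 1076 CPM with low loin weight. The highest value belonged to a pig with low loin weight, and the groups overlapped. The log2 fold change was -0.14 ± 0.23 (SE) with an edgeR adjusted p of 0.691. Without pig 1 of the low group it turned to 0.081. In Pietrain the levels ran from 617 to 1206 CPM with high and from 862 to 990.0 CPM with low loin weight, and the log2 fold change was 0.033 ± 0.24 (SE) with an edgeR adjusted p of 0.987. By group mean the order was Hampshire low (1379 ± 397 CPM, SD), Hampshire high (1260.2 ± 123), Pietrain low (933 ± 65.3) and Pietrain high (932 ± 245), and of these neighbours only Hampshire high and Pietrain low did not overlap.

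CKB (ENSSSCG00000021220) is the cytosolic creatine kinase first described in brain. Its model lies on scaffold GL895295.1, from base 124 to 2080, and it was counted at 6 to 64 reads per pig. For every CKB read there were 7604 to 40245 CKM reads, and the sources used here do not say how reads that match more than 1 gene were assigned, so the CKB values are uncertain. Hampshire pigs with high loin weight had 24, 53 and 64 reads (1.63, 4.82 and 4.09 CPM), and those with low loin weight had 19, 49 and 22 reads (1.16, 2.38 and 1.54 CPM). Pig 8 of the high group lay within the low group. In Pietrain, the high group had 28, 31, 19 and 15 reads and the low group 14, 9 and 6, and here pig 7 of the high group lay within the low group's range in CPM. The group means ran from 3.52 ± 1.67 (SD) CPM in Hampshire high through 1.70 ± 0.62 in Hampshire low and 1.54 ± 0.67 in Pietrain high to 0.755 ± 0.38 in Pietrain low, and all neighbours in that order overlapped. The log2 fold changes were 1.03 ± 0.45 (SE, edgeR adjusted p = 0.116) in Hampshire and 1.05 ± 0.55 (SE, edgeR adjusted p = 0.939) in Pietrain, neither of them called. Without pig 8 of the high group, CKB was called in Hampshire at 1.34 with an edgeR adjusted p of 0.0364.

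AK1 (ENSSSCG00000005627; chromosome 1, 302277902 to 302287920) encodes the cytosolic adenylate kinase that is abundant in muscle. In the Hampshire high group its level was 1875, 3468 and 2007 CPM, and in those with low loin weight 1661, 1434 and 1278 CPM. All pigs of the high group lay above all pigs of the low group, with pig 9 far above the other two. The log2 fold change was 0.74 ± 0.27 (SE), and the edgeR adjusted p of 0.0665 missed the threshold. Without pig 9 the log2 fold change was 0.38. DESeq2 gave an adjusted p of 0.0172 and the fit over all 13 pigs gave 0.0403, so AK1 was called by these, as it was without pig 8 of the high group (edgeR adjusted p = 0.0486). In Pietrain the high group had 1388, 1227, 1023 and 1584 CPM and the low group 1433, 1236 and 1301 CPM. The low group lay inside the range of the high group, and the log2 fold change was 0.013 ± 0.20 (SE) with an edgeR adjusted p of 0.992. The group means were 2450.1 ± 884 (SD) CPM in Hampshire high, 1458 ± 192 in Hampshire low, 1323 ± 101 in Pietrain low and 1305 ± 238 in Pietrain high, and of these neighbours Hampshire high alone stood apart.

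AMPD1 (ENSSSCG00000006754) encodes the AMP deaminase of skeletal muscle. Hampshire pigs had 1207, 974 and 1132 CPM with high and 1245, 1124 and 1118 CPM with low loin weight, and the groups overlapped. Pietrain pigs with high loin weight had 1724, 1358, 1839 and 1629 CPM, and those with low loin weight 1595, 2273 and 2101 CPM. Every Pietrain pig lay above every Hampshire pig, while the loin weight groups overlapped in Pietrain as well. Pietrain low had the highest mean (1989.9 ± 353 CPM, SD), followed by Pietrain high (1637 ± 205), Hampshire low (1162 ± 71.9) and Hampshire high (1104 ± 119). Between the loin weight groups the log2 fold change was -0.078 ± 0.17 (SE, edgeR adjusted p = 0.769) in Hampshire and -0.24 ± 0.19 (SE, edgeR adjusted p = 0.939) in Pietrain.

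SLC6A8 (ENSSSCG00000012771; chromosome X, 142008589 to 142017917) encodes the creatine transporter. It was counted at 169.9, 184 and 174 CPM in the Hampshire high group and at 149.6, 157 and 194 CPM in those with low loin weight. The Pietrain pigs had 121, 103, 76.5 and 108 CPM with high and 111, 70.0 and 101 CPM with low loin weight. Here the order of the breeds was the reverse of that for AMPD1, since every Hampshire pig lay above every Pietrain pig. The means were 176 ± 7.09 (SD) CPM in Hampshire high, 167 ± 24.1 in Hampshire low, 102 ± 18.6 in Pietrain high and 94.0 ± 21.4 in Pietrain low. The loin weight groups overlapped in both breeds, with log2 fold changes of 0.075 ± 0.16 (SE, edgeR adjusted p = 0.762) in Hampshire and 0.15 ± 0.23 (SE, edgeR adjusted p = 0.943) in Pietrain.

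**Figure D2:**
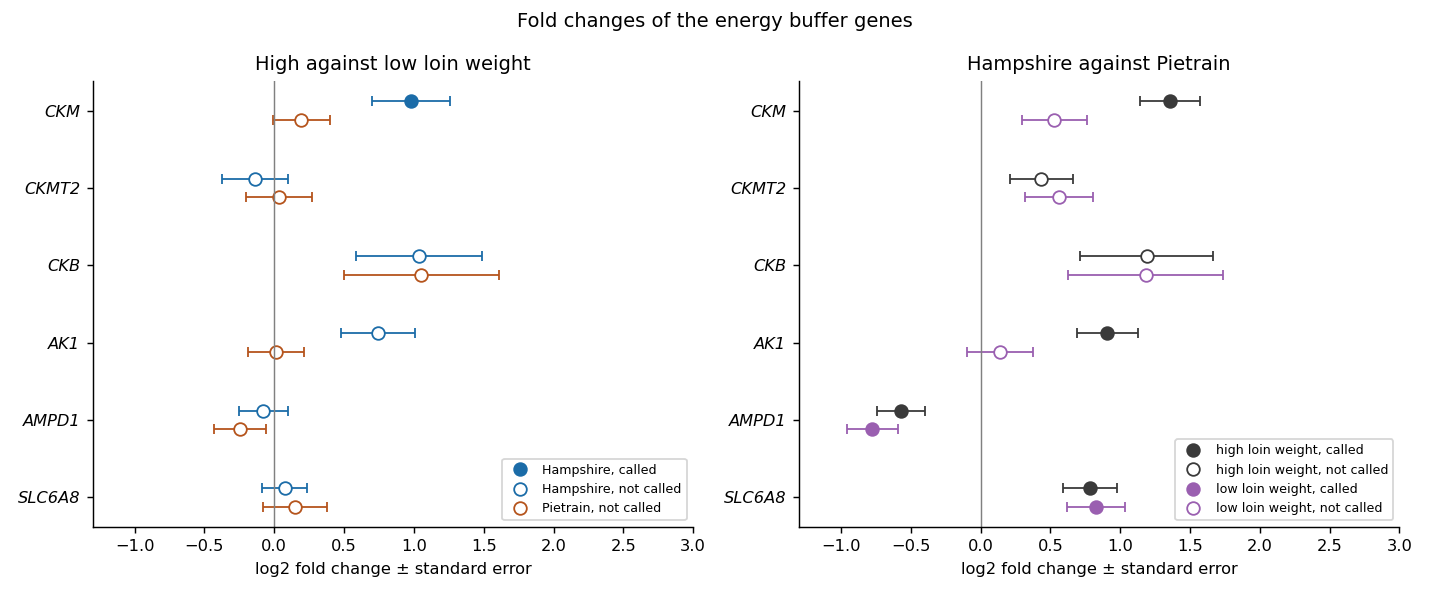
Log2 fold changes ± SE of the 6 genes for high against low loin weight in each breed (left) and for Hampshire against Pietrain within each loin weight group (right), with filled points for genes called. On the left CKM in Hampshire, at 0.98, is the filled point, and on the right AMPD1 lies below 0 in both groups while SLC6A8 lies above 0 in both.

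In Pietrain, edgeR called 0 of the 6 genes for loin weight, and 0 had an unadjusted p under 0.05. DESeq2 also called 0. The share of all 12065 genes called was 0%, with 398 at an unadjusted p under 0.05, so the energy buffer genes were no exception. Over all genes, DESeq2 called 1 here and 3446 in Hampshire. The paper, with DESeq2 and the same thresholds, reported more genes for Pietrain than for Hampshire, the reverse of these counts. The reason was not tested. For 0 of the 6 genes were the groups free of overlap, beside 4.59% of all genes. The log2 fold change of CKM was 0.19 ± 0.20 (SE, edgeR adjusted p = 0.939), and it was 0.0022 without pig 7 of the high group.

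Whether the loin weight effect differed between the breeds was tested as an interaction in 1 edgeR fit over the 13 pigs, where 5.9% of 12831 genes were called at an adjusted p under 0.05. None of the 6 energy buffer genes was called there by edgeR or by DESeq2. Of the 6, 2 had an unadjusted p under 0.05, beside 2835 of the 12831 genes. For CKM, the Hampshire effect exceeded the Pietrain effect by 0.83 ± 0.32 (SE) on the log2 scale, with an edgeR adjusted p of 0.143. For AK1 the excess was 0.77 ± 0.32 (SE), with an edgeR adjusted p of 0.180. So the call of CKM in Hampshire and its absence in Pietrain do not show that the effects differ. The other 4 genes had edgeR adjusted p-values from 0.678 to 1.00.

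The breeds were then compared within each loin weight group, in the same fit and with the same pigs as above. Among pigs with low loin weight, 17.9% of genes were called and 42.8% had groups that did not overlap. Of the energy buffer genes, 2 of 6 were called and 5 of 6 did not overlap. AMPD1 was lower in Hampshire than in Pietrain, with a log2 fold change of -0.78 ± 0.18 (SE) and an edgeR adjusted p of 0.0180. SLC6A8 was higher in Hampshire, with 0.83 ± 0.21 (SE) and an edgeR adjusted p of 0.0214. Both calls were lost without pig 2 or 3 of Hampshire or pig 5 or 8 of Pietrain, all of low loin weight, where the edgeR adjusted p was 0.0651 to 0.0981. CKM (log2 fold change 0.53, edgeR adjusted p = 0.120), CKMT2 (0.56, 0.113) and CKB (1.18, 0.138) had groups that did not overlap but were not called. CKM was called there with total counted reads (0.55, edgeR adjusted p = 0.0494) and CKMT2 without pig 6 of Pietrain with high loin weight (0.61, 0.0472). AK1 had overlapping groups, with a log2 fold change of 0.14 ± 0.24 (SE) and an edgeR adjusted p of 0.700.

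Among pigs with high loin weight, 46.8% of all genes were called between the breeds and 48.7% had groups that did not overlap. Here 4 of the 6 energy buffer genes were called, and these were also the 4 whose groups did not overlap. CKM was 2.56-fold higher in Hampshire, with a log2 fold change of 1.36 ± 0.22 (SE) and an edgeR adjusted p of 0.000277. AK1 was higher by 0.91 ± 0.22 (SE, edgeR adjusted p = 0.00434), and without pig 9 of Hampshire it stood at 0.53 with an adjusted p of 0.0560. SLC6A8 was higher by 0.78 ± 0.19 (SE, edgeR adjusted p = 0.00459) and AMPD1 differed by -0.57 ± 0.17 (SE, edgeR adjusted p = 0.0153), that is, lower in Hampshire. With total counted reads SLC6A8 stood at 0.55 with an edgeR adjusted p of 0.0538, and without the trend with gene length at 0.49 with 0.0486. CKMT2 (log2 fold change 0.44, edgeR adjusted p = 0.127) and CKB (1.19, 0.0517) missed the threshold. CKMT2 passed it without pig 7 of Pietrain (edgeR adjusted p = 0.0485), and CKB passed it without pig 8 of Hampshire (0.0219), without pig 2 of Pietrain (0.0462) and with DESeq2 (0.0461). Macrophage markers also moved with breed, and 4 of the 4 tested were called higher in Hampshire pigs with high loin weight. Their summed level was 27.1 to 53.5 CPM there and 5.50 to 15.4 CPM in Pietrain. Also called higher were 4 of 5 smooth muscle, 3 of 5 fibroblast, 2 of 4 endothelial, 1 of 5 fast fibre and 4 of 9 mitochondrial markers. Of 5 skeletal muscle markers 2 were called higher, CKM among them. Of 6 slow fibre markers 0 were called, but 5 lay above 0, with a median log2 fold change of 1.42. The slow fibre sums were 12886 to 20076 CPM in Hampshire and, spread widely, 2146 to 13654 CPM in Pietrain. The part of these in the breed differences was not tested.

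The balance between the genes was measured as the log2 ratio of counts within each library, which does not depend on scaling between libraries. The ratio of CKM to CKMT2, the cytosolic to the mitochondrial enzyme, was 37.1, 45.1 and 30.3 reads of CKM per read of CKMT2 in the Hampshire high group. It was 14.8, 20.7 and 18.5 in those with low loin weight. The groups did not overlap, and the log2 ratios were 5.21 ± 0.29 and 4.16 ± 0.25 (SD, n = 3 each), a difference of 1.05. In Pietrain the ratio ran from 16.4 to 25.8 with high and from 17.0 to 19.9 with low loin weight, a log2 difference of 0.17.

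The ratio of AK1 to AMPD1, of the enzyme that makes AMP to the enzyme that removes it, was 1.55, 3.56 and 1.77 in the Hampshire high group and 1.33, 1.28 and 1.14 in those with low loin weight. Again the groups did not overlap, and the log2 difference was 0.78, or 0.41 without pig 9 of the high group. All 7 Pietrain pigs had fewer reads of AK1 than of AMPD1, with ratios of 0.544 to 0.972, and the log2 difference between the loin weight groups was 0.24. The ratio of CKM to CKB differed by -0.0046 in Hampshire and -0.86 in Pietrain on the log2 scale, with overlapping groups in both. In exact two-sided permutation tests over pigs, both Hampshire ratios without overlap gave p = 0.1, the smallest that 3 against 3 pigs allow. For 4 against 3 pigs in Pietrain the smallest possible p was 0.0571, and the exact permutation p-values were 0.229 to 0.457. No ratio could thus pass 0.05 in this design, and over the 6 tests the adjusted values of the exact permutation tests were 0.3 to 1.

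**Figure D3:**
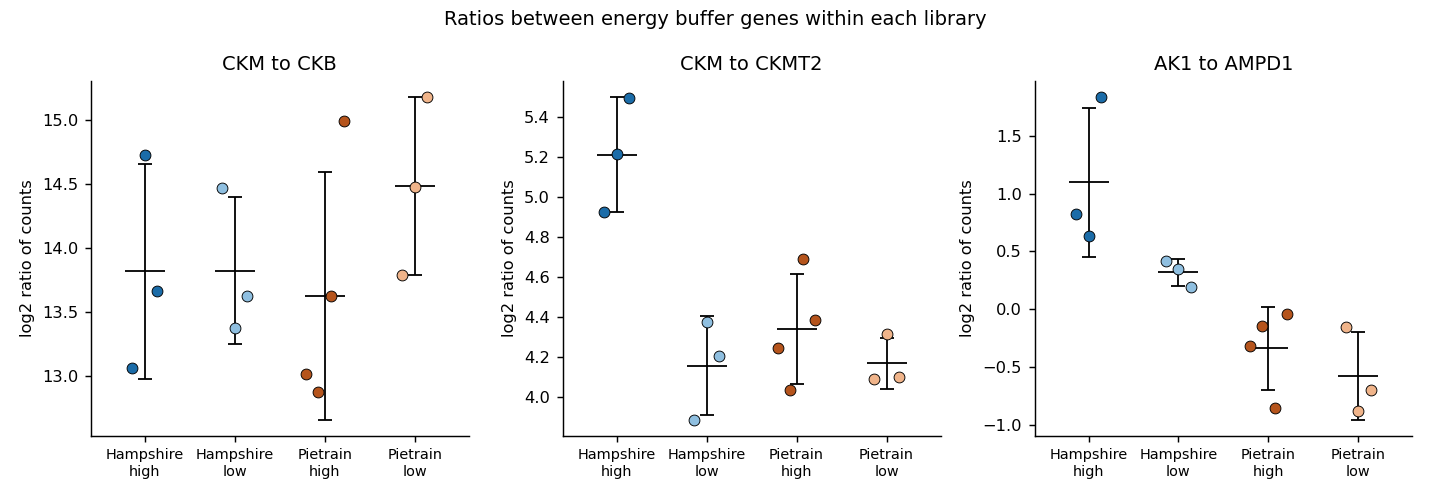
Log2 ratio of the counts of a pair of genes in each library, with 1 point per pig and a black line and bar for the group mean ± SD (n = 3, 3, 4 and 3 pigs from left to right); the vertical axes do not start at 0. For CKM to CKMT2 the 3 Hampshire pigs with high loin weight, at a mean of 5.21, lie above every other pig.

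The genes whose log2 CPM followed each energy buffer gene most closely over the 13 pigs were looked up among 9814 expressed genes with a symbol. All correlations are across the same pigs, include the differences between groups and are descriptions. For CKM these included the ribosomal protein gene RPL13 (Pearson r = 0.984, and 0.907 after group means were subtracted). AK1 was followed most closely by PHPT1 (r = 0.967), a phosphohistidine phosphatase, and by PGAM2 (0.964), the phosphoglycerate mutase of muscle glycolysis. CKB had SPARC (r = 0.951), a secreted matrix protein, and AEBP1 (0.942). For CKMT2 the closest were TWF2 (r = 0.942) and COQ9 (0.929), which is needed to make coenzyme Q in mitochondria. AMPD1 had SLU7 (r = 0.970), a splicing factor, and YME1L1 (0.964), a mitochondrial protease, while SLC6A8 had ZNF574 (r = 0.977) and GTF2IRD1 (0.955). Among the 6 genes themselves, the pair CKM and AK1 had the highest correlation after group means were subtracted (r = 0.826), and AMPD1 went against CKB (r = -0.599) and SLC6A8 (r = -0.594).

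Other genes of phosphate transfer and adenine nucleotide turnover were taken from a list of 41 symbols, of which 32 matched a counted gene. In Hampshire 28 of them passed the filter on low counts. Of these, 8 were called (6 higher and 2 lower with high loin weight), beside 26.6% of all genes, and 22 of 28 had a log2 fold change above 0. Their median was 0.32, beside 0.029 for all genes. DESeq2 called 9. In Pietrain 26 were tested, edgeR and DESeq2 each called 0, and 0 had an unadjusted p under 0.05. There the median was -0.11, beside 0.020 for all genes, and 18 of 26 lay below 0.

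NT5C1A, the cytosolic nucleotidase of muscle that turns AMP into adenosine, had the smallest adjusted p of the list in Hampshire. It was counted at 22, 15 and 12 reads (1.5, 1.36 and 0.767 CPM) in the Hampshire high group and at 126, 208 and 121 reads (7.72, 10.1 and 8.48 CPM) in the Hampshire low group. High against low gave a log2 fold change of -2.87 ± 0.30 (SE) with an edgeR adjusted p of 0.00135. In Pietrain the high group had 5.79, 9.93, 5.65 and 9.20 CPM and the low group 6.08, 1.27 and 4.57 CPM. These groups overlapped, with a log2 fold change of 0.97 ± 0.47 (SE) and an edgeR adjusted p of 0.939. The difference between the breeds was itself called in the interaction test, at -3.80 ± 0.63 (SE) with an edgeR adjusted p of 0.00535. NT5C1A was the 1 gene called there of the 28 tested from the list, beside 5.9% of all genes.

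The other called genes in Hampshire fell into the list's roles as follows. In AMP and IMP turnover, APRT, which salvages adenine to AMP, rose by 1.03 ± 0.19 (log2, SE; edgeR adjusted p = 0.00751), and NT5E, a cell surface nucleotidase that makes adenosine from AMP, rose by 1.44 ± 0.36 (0.0205). ADSL, which works in the purine nucleotide cycle after AMP deaminase, rose by 0.72 ± 0.17 (0.0176). Among adenylate kinases, AK3 of the mitochondrial matrix had a log2 fold change of -0.89 ± 0.20 (0.0135), with 49.3 to 58.5 CPM in the high group and 82.6 to 122 CPM in the low group. NME3 and NME6, of the nucleoside diphosphate kinase family, rose by 0.87 ± 0.19 (0.0132) and 0.61 ± 0.19 (0.0451). SLC25A6 (ENSSSCG00000012623), an ADP and ATP carrier of the inner mitochondrial membrane with close relatives, rose by 0.75 ± 0.23 (0.0423). The paper gives this symbol to another Ensembl gene, which it reports as higher with high loin weight in both breeds. The label of the gene counted here is therefore uncertain. NME6 and SLC25A6 had an adjusted p under 0.05 in only 3 and 4 of 14 alternatives, with highest values of 0.417 and 0.272 without the trend with gene length. The call of NME3 was also lost without that trend (0.48, edgeR adjusted p = 0.0680) and that of ADSL with total counted reads (0.0692). NT5C1A kept an adjusted p under 0.05 in 13 of 13 alternatives and APRT in 14 of 14, and the other 6 genes lost it in at least 1. These counts include the alternative with no limit on the fold change, which cannot alter an adjusted p. The losses without a single pig came from each of the 6 pigs. AK3 lost it without pig 10 of the high group (0.0508), NME3 also without pig 3 of the low group (0.0637) and ADSL without pig 1 or 3 of the low or pig 8 of the high group (0.0522 to 0.0771). For NT5E this was so without any pig other than pig 8 of the high group (0.0536 to 0.0718). The creatine supply genes GATM and GAMT, which encode the enzymes of creatine synthesis, were not called. GATM stood at 0.51 ± 0.44 (edgeR adjusted p = 0.407) with overlapping groups. GAMT stood at 0.68 ± 0.23 (0.0595), and its groups did not overlap, as for 45.9% of all genes. In Pietrain the genes of the list with the smallest unadjusted p were, after NT5C1A, GATM (-0.70 ± 0.37), VDAC3 (-0.29 ± 0.18), a channel of the outer mitochondrial membrane, and NME1 (0.39 ± 0.29), each with an edgeR adjusted p of 0.939.

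**Figure D4:**
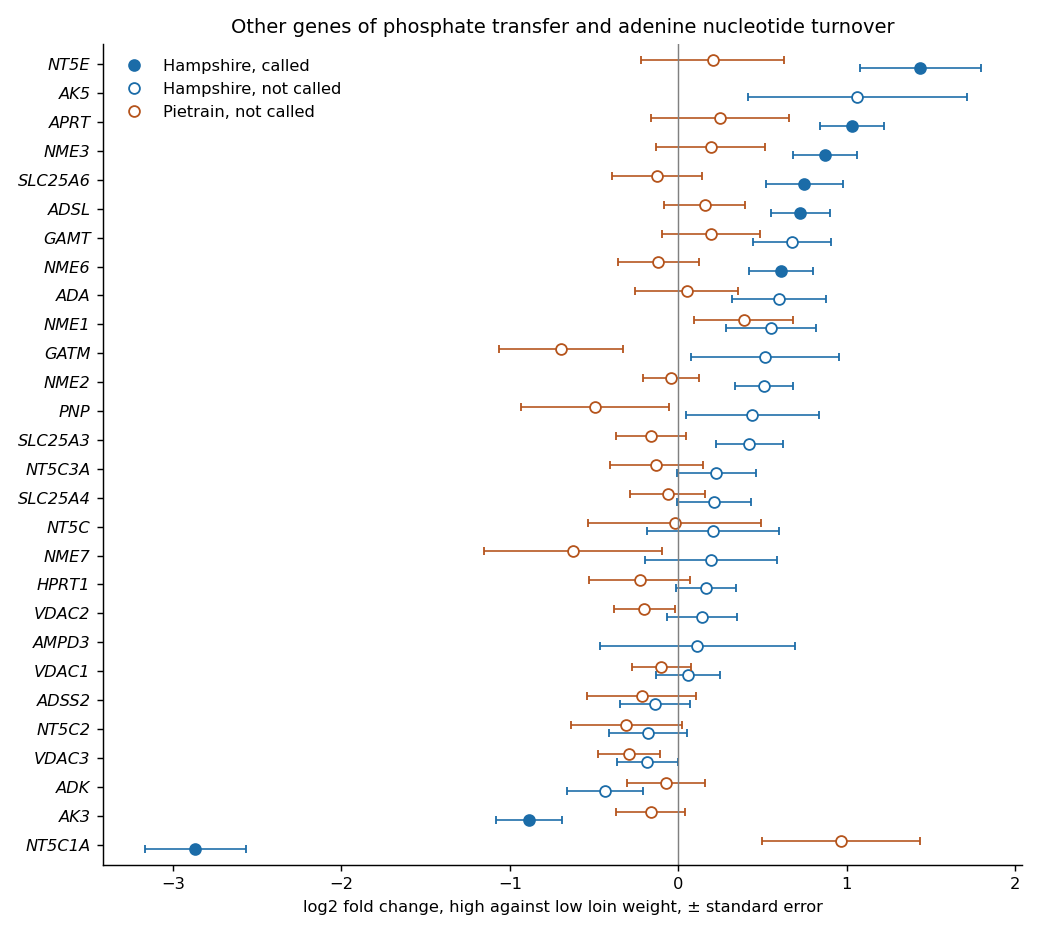
Log2 fold change ± SE for high against low loin weight of the 28 genes of the wider list tested in Hampshire and the 26 tested in Pietrain, ordered by the Hampshire value, with filled points for genes called. The Hampshire points lie above 0 for 22 of 28 genes and the Pietrain points below 0 for 18 of 26, and NT5C1A is lowest in Hampshire at -2.87 and highest in Pietrain at 0.97.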

How the data were processed

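Longissimus lumborum RNA of 13 pigs was sequenced by the authors as single-end reads of 101 cycles in 4 technical repetitions, and the reads were aligned to Sscrofa10.2. The submitters' processing notes list FastQC, STAR, RSEM and DESeq2, without their settings, and the annotation release is not given in the sources used here. The authors deposited whole-number counts of reads per Ensembl gene, not normalized, in 1 table per breed, and these counts were used as deposited. Their other tables hold the authors' own DESeq2 comparisons, of which only symbols and coordinates were used. No column of per-sample values was left unmatched. Symbols were found for 13168 of 25322 identifiers, 7066 of them in the deposited tables and the others in a reference list of gene names.

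Groups came from the sample labels. All 15 pairs of libraries within a group were farther apart than sampling noise allows. In R 4.3.3, edgeR 4.0.16 was run with TMM scaling, the filterByExpr filter on low counts and the quasi-likelihood functions glmQLFit and glmQLFTest, by breed for loin weight and over all 13 pigs for the interaction and the breeds, with Benjamini-Hochberg adjustment over all genes tested. Standard errors came from the fitted log2 fold change and the F statistic. Correlations used log2(CPM + 0.5). Ratios used counts plus 0.5 and exact permutation tests in SciPy 1.17.1. Figures were drawn with matplotlib 3.10.9.

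The alternatives were DESeq2 1.42.0, its size factors in edgeR, total counted reads, a joint fit of the 13 pigs, no filter on low counts, a minimum of 10 counts per pig, no limit on the fold change, removal of the trend with gene length on the chromosome (known for 5 of the 6 genes, not AMPD1), 5 counts added in the ratios, and leaving out each pig. The tests were also run on simulated counts with known changes, and no result given here rests on that run. The 6 genes and all lists were chosen with earlier results of these data known. The named genes were the 6 genes, the called genes of the wider lists with the smallest adjusted p (at most 12, or the 4 smallest unadjusted p where none was called), and the 2 best correlated genes for each of the 6. Some genes are not reported here.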

Additional observations from a re-analysis of the deposited data

Results flagged for a closer look

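Pietrain with high loin weight was the group with at least 4 pigs, and there the highest or lowest pig was compared with the others by Dixon's ratio of gap to range for each of the 6 genes. CKM in Pietrain pigs with high loin weight had a ratio of 0.877, because pig 7, at 25248 CPM, stood apart from the other 3 at 15946 to 17093 CPM. Chance marks about 1 in 20 such tests, and the 6 tests share the same 4 pigs.

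The loin weight effect of NT5C1A differed between the breeds by -3.80 (log2, Hampshire minus Pietrain), and its edgeR adjusted p stayed under 0.05 in 18 of 18 alternatives. Of the 28 genes of the wider list tested for this difference, it was the 1 called, beside 5.9% of all genes.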

How the results depend on the processing

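No paired analysis was possible because pig numbers name different animals and the high and low groups of a breed share none. In Hampshire, 1 of the 6 genes was called for loin weight; DESeq2 and the fit over all 13 pigs each called 2, and removal of the gene length trend left 0. The wider list's 8 calls became 5 with total counted reads and 5 without the length trend. Leaving out a pig gave 0 to 2 calls among the 6 genes and 3 to 6 in the wider list, and over all genes 1224 to 3049 in place of 3256. Between the breeds at low loin weight, 2 calls became 0 to 3, and 2300 calls over all genes became 109 to 3091, the lowest without pig 2 of Hampshire. Interaction calls over all genes numbered 757, but 1224 with DESeq2, 498 without the length trend and 379 to 1052 without a pig.

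Small uncalled values changed sign. SLC6A8 in Hampshire became -0.088 with total counted reads and -0.12 without the length trend. In Pietrain, CKMT2 became -0.0014 and AK1 -0.020 in the fit over all pigs, and AK1 -0.032 without the length trend. The interaction of CKB became -0.29 with total counted reads, -0.058 without a filter and -0.41 without the length trend, and that of AMPD1 -0.065 with total counted reads. Without a pig, values ran from -0.30 to 0.081 for CKMT2 and -0.040 to 0.19 for SLC6A8 in Hampshire, and from -0.13 to 0.21 for CKMT2, -0.10 to 0.13 for AK1 and -0.042 to 0.32 for SLC6A8 in Pietrain. Interaction values ran from -0.35 to 0.073 for CKMT2, -0.49 to 0.30 for CKB and -0.25 to 0.090 for SLC6A8. The log2 ratio of CKM to CKB in Hampshire became 0.072 with 5 counts added and ran from -0.46 to 0.37 without a pig. The causes were not tested.

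With total counted reads the median log2 fold change of all genes moved to -0.12 in Hampshire, 0.11 in Pietrain, -0.29 in the interaction and -0.22 between the breeds at high loin weight, and without a filter to -0.13 in the interaction. The share of calls that were higher then fell from 45.1% to 28.8% in Hampshire, from 28.4% to 10.9% in the interaction (17.9% without the length trend) and from 48.3% to 33.1% between the breeds at high loin weight, where SLC6A8 had an adjusted p of 0.0538. Among alternatives that kept all pigs, 330 results stayed the same and 10 changed direction. A further 15 no longer passed the threshold, 4 newly passed it and 5 counts of calls moved. Among those without a pig, these numbers were 431, 21, 34, 6 and 13. Staying the same meant direction and side of the threshold for fold changes, direction alone for ratios and a similar number for counts of calls. With 3 or 4 pigs a group, the fits cannot settle differences near the standard errors given, and CKB had 6 to 64 reads per pig.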

Other observations

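Between the breeds, the wider list of phosphate transfer and adenine nucleotide genes had calls as follows. At low loin weight 2 of its 28 tested genes were called (beside 17.9% of all genes), GAMT (1.28) and NME2 (0.51), both higher in Hampshire, with a median log2 fold change of -0.088. At high loin weight 12 of 28 were called (beside 46.8% of all genes), 8 higher and 4 lower in Hampshire, with a median of 0.46 beside 0.017 for all genes. The lower were NT5C1A (-2.66), AK3 (-1.27), NT5C2 (-0.86), a nucleotidase, and ADK (-0.62), which makes AMP from adenosine. Among the higher was GAMT (1.81), which makes creatine. These genes were chosen for naming after their values were seen.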
